A study of Mus musculus with 45 samples.

Results

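Transcripts of 10 secreted proteins of the extracellular matrix were followed through the uterus of wildtype (WT) and Plag1 knockout (KO) mice. Of these, 5 were small leucine-rich proteoglycans (Lum, Dcn, Bgn, Fmod and Ogn) and 5 were proteins of the SPARC, spondin and HTRA families (Smoc1, Smoc2, Sparcl1, Spon2 and Htra3). They were 10 of the 24422 genes in the count table and were found by their symbols. They had been chosen on their levels in the tissues of these same mice, so their differences between tissues are given as a description with no p, and calls counted there are no evidence about them. The differences between genotypes were tested. These tests may not be independent of the choice either, since earlier results of these data were known when it was made.

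The animals were 14 sexually mature females of a CD-1 colony, 7 of them WT and 7 carrying a whole-body deletion of Plag1, which encodes a zinc finger transcription factor. WT and KO females alike were superovulated with 5 IU pregnant mare serum, received 5 IU hCG 2 days later and were killed on the following day. Females used for superovulation in the study were 1 to 3 months old. In the KO allele, lacZ takes the place of the Plag1 reading frame. Each mouse gave a piece of uterine horn with all its layers (uterus), the mucosa scraped from an opened horn (endometrium) and the wall that remained after scraping (myometrium), which made 6 groups of 7 mice. The study asked with these samples if the uterus of KO females differed from that of WT females.

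Small leucine-rich proteoglycans are secreted mainly by fibroblasts. Their curved leucine-rich core binds collagen and sets the spacing and width of its fibrils, and several of them also hold growth factors of the TGF-β family. Matricellular proteins are secreted into the matrix as well, where they act on cells and growth factors more than they bear load. In the uterus both kinds of protein belong to the stroma and to the connective tissue between the muscle bundles, and they are remodelled during the estrous cycle, in pregnancy and at parturition.

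Expression was read by STRT RNA-seq, which counts tagged molecules at transcript 5′ ends, so levels were not compared between genes. The 45 libraries held 264095 to 1232992 counts each, and levels are given as CPM, counts scaled to a common library size with TMM factors. A floor of 3 counts stood for 1.23 to 11.7 CPM in a sample of a mouse and tissue. Plag1 itself gave 7 counts in all, at most 1 in a sample, and these fell in 2 WT and 5 KO samples, so the counts could not check the genotypes. The tissue labels were checked against marker lists. All 5 epithelial genes (Krt8, Krt18, Krt19, Epcam and Cdh1) were higher and all 5 smooth muscle genes (Acta2, Des, Myh11, Cnn1 and Actg2) lower in endometrium than in myometrium of both genotypes (edgeR quasi-likelihood test, adjusted p under 0.05). Of the 4 fibroblast genes, Col1a1, Col1a2 and Col3a1 were lower in endometrium in both genotypes and Pdgfra was not called. The summed smooth muscle genes reached 361 to 10440 CPM in WT and 211 to 11105 CPM in KO endometrium, against 11335 to 34004 and 14813 to 29256 CPM in myometrium. The scrapings of WT mouse 3 and KO mouse 13 stood apart, with muscle scores (mean log2 CPM of the 5 genes) of 10.7 and 10.8, while the other 12 scrapings lay between 4.41 and 8.95. The mean muscle score was 7.79 ± 1.72 in WT and 6.53 ± 2.09 in KO scrapings (SD, n = 7). Its part in the differences between genotypes in endometrium was not tested.

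All 10 members passed the filter on low counts in every comparison of genotypes. On build NCBIM37, the build of the files, Lum (chr10:97028135-97035337, plus strand) lay 47.4 kb from Dcn (chr10:96942245-96980777, plus strand), with the related gene Kera 34.5 kb and Epyc 71.4 kb from Lum. Ogn (chr13:49703440-49719869, plus strand) lay in a second cluster with Omd, Aspn and Ecm2, at distances of 15.5, 40.5 and 75.3 kb. Fmod (chr1:135933831-135944854, plus strand) lay 116 kb from Prelp and 129 kb from Optc. Bgn (chrX:70728941-70741272, plus strand) had no listed proteoglycan gene within 500 kb. The matricellular members were Smoc1 (chr12:82127795-82287401, plus strand), Smoc2 (chr17:14416513-14541797, plus strand), Sparcl1 (chr5:104508130-104543107, minus strand), Spon2 (chr5:33556167-33560887, minus strand) and Htra3 (chr5:35994682-36022431, minus strand). Their neighbours were searched among the proteoglycan genes alone, so closeness to their own relatives was not examined. Ogn lay inside Cenpp on the opposite strand, but Cenpp had 70 counts in the 42 samples against 3087 for Ogn. Use of strand in counting was not stated, so reads of the pair cannot be told apart.

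The 250 bases before the annotated start are shown for Lum, Ogn and Sparcl1, which had wide differences between the uterine layers, and for Spon2, which had the largest difference between genotypes in the endometrium, because these genes carry comparisons that follow. Each is printed 5′ to 3′ on the strand of the gene, and capitals mark matches on either strand to the motifs searched, which were the TATA box (TATAAA), the CCAAT box, the core of a GC box (GGGCGG), the AP-1 type element (TGANTCA), an E-box (CAGCTG), the serum response factor CArG box and the PLAG1 consensus. The GC box core and the PLAG1 consensus may overlap.
Lum (chr10:97027885-97028134): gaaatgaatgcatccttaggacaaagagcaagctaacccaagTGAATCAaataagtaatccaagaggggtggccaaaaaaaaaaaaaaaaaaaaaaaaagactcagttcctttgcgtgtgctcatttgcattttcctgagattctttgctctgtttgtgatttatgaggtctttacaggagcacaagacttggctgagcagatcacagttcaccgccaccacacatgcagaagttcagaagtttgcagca
Ogn (chr13:49703190-49703439): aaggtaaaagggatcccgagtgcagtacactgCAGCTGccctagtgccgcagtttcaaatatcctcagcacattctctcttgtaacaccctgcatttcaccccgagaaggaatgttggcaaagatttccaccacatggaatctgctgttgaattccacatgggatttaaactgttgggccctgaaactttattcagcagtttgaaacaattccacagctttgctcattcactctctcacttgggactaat
Sparcl1 (chr5:104543108-104543357, minus strand): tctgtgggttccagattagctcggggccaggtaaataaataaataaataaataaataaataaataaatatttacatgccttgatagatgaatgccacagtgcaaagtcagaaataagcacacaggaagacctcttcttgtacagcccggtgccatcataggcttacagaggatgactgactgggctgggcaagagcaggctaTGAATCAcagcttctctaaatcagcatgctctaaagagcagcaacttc
Spon2 (chr5:33560888-33561137, minus strand): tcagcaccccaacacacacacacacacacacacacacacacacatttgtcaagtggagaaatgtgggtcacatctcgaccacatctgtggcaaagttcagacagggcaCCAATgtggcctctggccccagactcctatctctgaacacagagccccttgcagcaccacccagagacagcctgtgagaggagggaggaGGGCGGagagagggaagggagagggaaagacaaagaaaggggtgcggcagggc

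TGANTCA stood 208 bases before the start of Lum and 48 bases before the start of Sparcl1, and 6.00% of the 22375 windows of this length before protein-coding genes held it. GGGCGG was found in Spon2, Dcn and Bgn (39.6% of all windows) and CCAAT in Spon2 and Htra3 (35.0%). CAGCTG was found in Ogn, Dcn, Bgn and Htra3 (11.8% of all windows). The PLAG1 consensus matched Bgn at 2 overlapping places (18.9% of all windows). Among the 8 members whose windows were searched, none held TATAAA (12.3% of all windows) or the CArG box (1.34%). The windows of Lum, Sparcl1 and Ogn were poor in G and C at 40.4%, 41.6% and 45.2%, below the median of 54.0% over all windows, while Spon2 was near the median at 56.8%. These matches are a description of the letters, and binding was not measured.

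Across the layers, 9 of 10 members had a lower mean level in endometrium than in myometrium in both genotypes, and Spon2 had it in WT alone. Within single mice, 8 members were lower in endometrium in 7 of 7 WT and 7 of 7 KO mice. The exceptions were Bgn, lower in 6 of 7 mice of each genotype, and Spon2, lower in 7 of 7 WT but 2 of 7 KO mice. Fmod, among the 8, was at 3 counts or fewer in most samples of the layers, so its order within single mice is uncertain. In KO mouse 11 both layers had 2 counts (2.69 CPM in endometrium, 2.88 CPM in myometrium). In KO mouse 13 Fmod had 6 counts in endometrium against 2 in myometrium, and was lower only after scaling (2.51 against 3.96 CPM). Over all 7 mice it had 4 counts in endometrium against 24 in myometrium in WT, and 10 against 28 in KO. The median log2 fold change of the members (endometrium minus myometrium) was -1.71 in WT, where the median of all genes tested was 0.004, and -1.76 in KO, where it was 0.076. In the fit across all genes 8 of 10 were called lower in WT and 8 of 10 in KO, where 6.40% and 8.71% of all genes tested were called lower. Because the members were chosen by these values, nothing is read from that count. In these bulk samples, fewer cells of a type and less RNA per cell cannot be told apart. The layers also lay in different plate rows, so layer and row cannot be told apart.

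**Figure D1:**
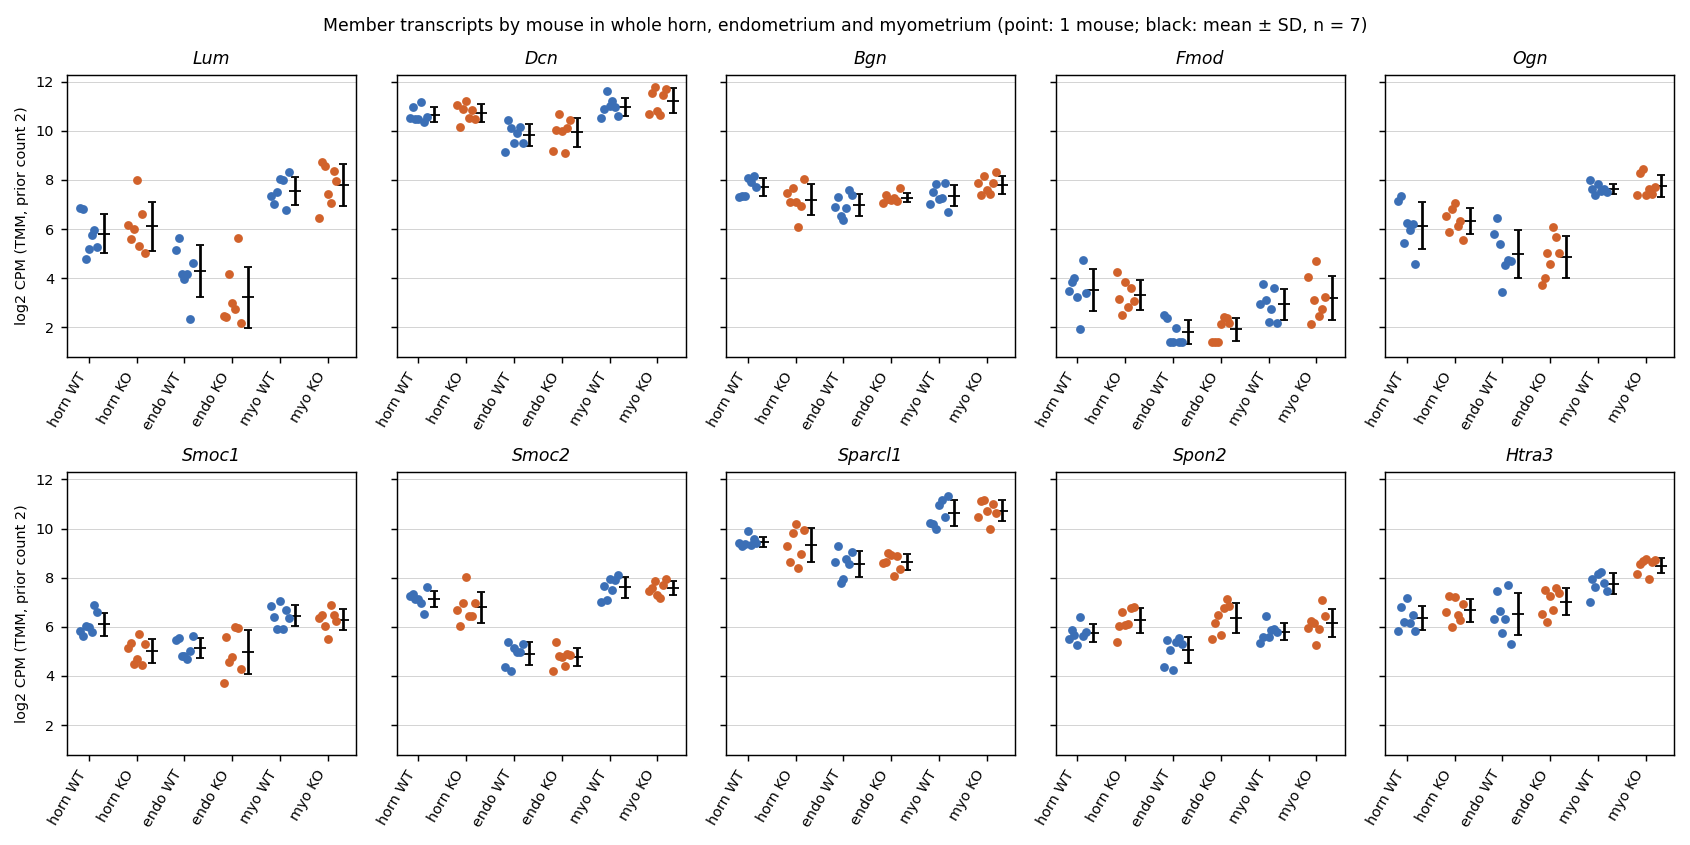
Levels of the 10 members on a log2 CPM axis by group (whole horn, endometrium, myometrium; WT blue, KO orange), where each point is 1 mouse and the black bar is the mean ± SD of 7 mice. The mean of the myometrium stands above that of the endometrium for every member in WT and for every member but Spon2 in KO.

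Lum encodes lumican, a keratan sulfate proteoglycan that controls collagen fibril width. Its level in WT endometrium had a lowest, median and highest value of 2.39, 15.5 and 47.0 CPM, against 107, 178 and 315 CPM in WT myometrium. In KO endometrium the values were 1.86, 4.03 and 46.5 CPM, against 84.1, 246 and 425 CPM in KO myometrium. The layers did not overlap in either genotype. KO endometrium was at 3 counts or fewer in 5 of 7 mice, and its highest value belonged to the muscle-rich scraping of mouse 13, with the next mouse at 15.2 CPM. The highest WT scraping was that of mouse 3, which was muscle-rich as well. Lum had the widest gap between the layers among the members, with log2 fold changes of -3.23 ± 0.39 in WT and -4.23 ± 0.53 in KO (SE, n = 7 mice a layer), which became -3.70 without mouse 3 and -5.51 without mouse 13. Within mice, myometrium exceeded endometrium 2.68- to 31.7-fold in WT and 6.90- to 117-fold in KO, with medians of 13.7 and 25.9 (pseudocount of 1 CPM). The mice with the smallest ratios were WT mouse 3 and KO mouse 13.

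Dcn, the neighbour of Lum, encodes decorin, which decorates collagen fibrils and binds TGF-β. Its level was 942 ± 289 CPM in WT endometrium and 2073 ± 571 CPM in WT myometrium (SD, n = 7), and 1046 ± 396 and 2521 ± 821 CPM in KO. WT scrapings spanned 558 to 1379 CPM and WT myometrium 1460 to 3158 CPM, so the layers of WT mice did not overlap. KO scrapings spanned 542 to 1635 CPM and KO myometrium 1580 to 3482 CPM, an overlap at the edge. The log2 fold changes were -1.13 ± 0.22 and -1.26 ± 0.25, far smaller than those of Lum although both genes sit in 1 cluster.

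Ogn encodes osteoglycin, or mimecan, a proteoglycan with a short leucine-rich core. WT endometrium held 8.05, 23.9 and 83.9 CPM (lowest, median, highest) and WT myometrium 164, 193 and 253 CPM. KO endometrium held 10.4, 29.8 and 64.5 CPM and KO myometrium 164, 197 and 346 CPM. The layers did not overlap in either genotype. The mean of the myometrium was 5.54 times that of the endometrium in WT and 7.12 times in KO, and the log2 fold changes were -2.47 ± 0.34 and -2.80 ± 0.33.

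Bgn encodes biglycan, a close relative of decorin with a pair of glycosaminoglycan chains. It was the proteoglycan with the most even levels, at 130 ± 40.6 and 167 ± 49.8 CPM in WT endometrium and myometrium (SD, n = 7) and 154 ± 23.0 and 226 ± 57.7 CPM in KO. The ranges of the layers overlapped in both genotypes, at 78.9 to 188 against 101 to 234 CPM in WT and 133 to 201 against 164 to 317 CPM in KO. Its log2 fold changes were -0.34 ± 0.25 and -0.54 ± 0.20.

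Fmod encodes fibromodulin, which binds collagen I and is best known from tendon. It was near the floor, with 4 counts over the 7 WT scrapings and 10 over the 7 KO scrapings, against 24 and 28 in myometrium. The highest endometrial values were 2.95 CPM in WT and 2.69 CPM in KO, and myometrium reached 10.8 and 23.0 CPM. No fold is given, since 7 of 7 WT and 6 of 7 KO scrapings and most myometria were at 3 counts or fewer. Whole horn had a median of 8.43 CPM in WT and 6.10 CPM in KO, against 4.99 and 5.96 CPM in myometrium.

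Smoc1 and Smoc2 encode the SPARC-related modular calcium-binding proteins, which bind matrix and modulate BMP and other growth factor signals. Smoc2 was the second widest after Lum in the fits over all mice, with 15.5 to 39.4 CPM in WT endometrium against 125 to 273 CPM in myometrium, and 16.0 to 39.6 against 142 to 246 CPM in KO. Ogn was wider than Smoc2 without mouse 3 in WT (-2.886 against -2.845) and without mouse 13 in KO (-3.065 against -2.940). The layers were separate in both genotypes, with log2 fold changes of -2.75 ± 0.27 and -2.90 ± 0.23. Smoc1 followed at a smaller distance, with 33.8 ± 9.98 CPM in WT endometrium and 88.9 ± 27.6 CPM in WT myometrium (SD, n = 7). In KO the means were 34.2 ± 21.0 and 78.7 ± 22.9 CPM, and the KO layers overlapped, since the scrapings reached 61.8 CPM and the myometrium began at 42.7 CPM. Its log2 fold changes were -1.38 ± 0.27 and -1.17 ± 0.33.

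Sparcl1 encodes SPARC-like 1 (hevin), a matricellular glycoprotein that affects cell adhesion. WT endometrium held 220, 396 and 617 CPM (lowest, median, highest) and WT myometrium 1014, 1426 and 2538 CPM. KO endometrium held 268, 393 and 512 CPM and KO myometrium 1022, 1674 and 2320 CPM. Both genotypes showed separate layers and nearly the same distance, with log2 fold changes of -2.04 ± 0.27 and -2.10 ± 0.21.

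Spon2 encodes spondin 2 (mindin), a matrix protein that also serves innate immunity. WT endometrium held 16.1, 37.3 and 44.2 CPM against 38.2, 53.0 and 84.0 CPM in WT myometrium. KO endometrium held 42.4, 87.9 and 138 CPM against 36.1, 69.6 and 133 CPM in KO myometrium. The ranges overlapped in both genotypes. The log2 fold change was -0.70 ± 0.27 in WT and 0.24 ± 0.28 in KO, the single change of sign among the members.

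Htra3 encodes a secreted serine protease that is known from the decidua and placenta. Its endometrial level spread widely, at 103 ± 62.9 CPM in WT and 135 ± 47.7 CPM in KO (SD, n = 7), against 220 ± 61.6 and 365 ± 73.5 CPM in myometrium. WT scrapings reached 206 CPM and overlapped with WT myometrium, which began at 128 CPM. KO scrapings ended at 190 CPM, below the lowest KO myometrium at 246 CPM. The log2 fold changes were -1.08 ± 0.31 and -1.42 ± 0.23. Over all members, endometrium lay wholly below myometrium for 6 in WT (Lum, Dcn, Ogn, Smoc1, Smoc2 and Sparcl1), beside 1.97% of all genes tested. It did so for 5 in KO (Lum, Ogn, Smoc2, Sparcl1 and Htra3), beside 2.54% of all genes tested. Endometrium lay wholly above myometrium for 0 members, beside 148 of 13227 genes in WT and 361 of 12969 in KO.

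**Figure D2:**
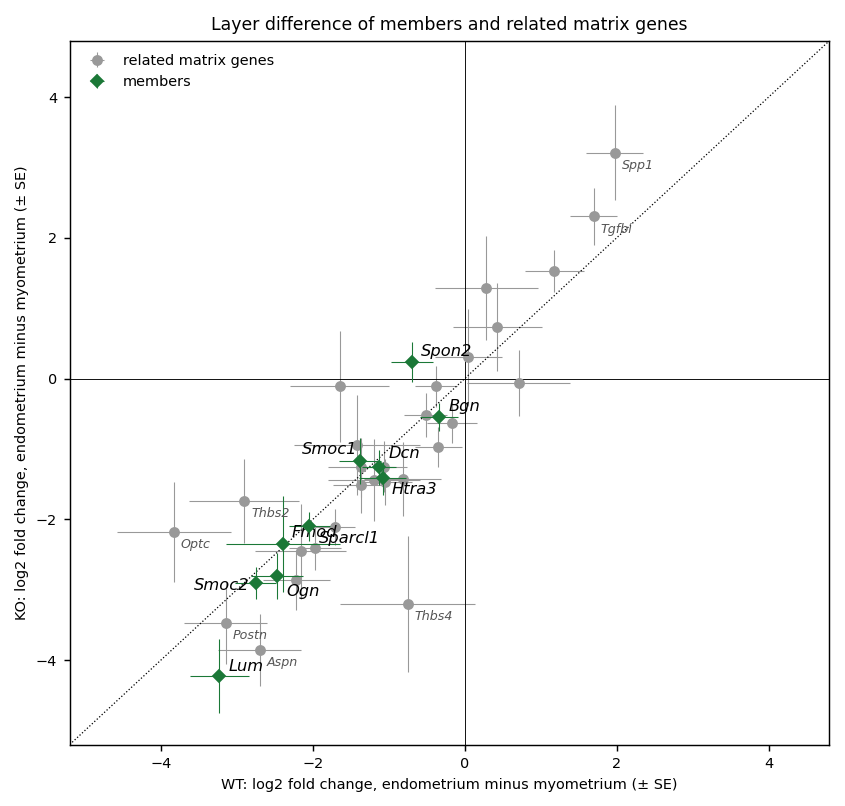
Log2 fold change of endometrium minus myometrium in WT (x axis) and in KO (y axis), with bars of ± 1 SE, for the 10 members (green) and the related matrix genes tested in both genotypes (grey), with the dotted line marking equal values. Lum lies farthest down among the members at -3.23 and -4.23, and Spon2 is the member above 0 in KO, at 0.24. Fmod, Optc, Thbs2 and Thbs4 rest on counts near the floor of 3 in most scrapings.

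Related matrix genes, listed by family but with earlier results of these data known, were then examined. The list held 43 genes in the table, of which 28 passed the filter in WT and 29 in KO. In WT 12 were lower and 3 higher in endometrium (edgeR quasi-likelihood test, adjusted p under 0.05), and in KO 14 were lower and 3 higher. The medians of the relatives tested were -1.06 and -1.25, beside 0.004 and 0.076 over all genes. The backgrounds of genes called higher were 6.79% in WT and 10.6% in KO.

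Among the relatives of the proteoglycans, Aspn (asporin, the neighbour of Ogn) was lower in endometrium by -2.70 ± 0.55 in WT and -3.86 ± 0.51 in KO on the log2 scale (SE, n = 7), with an adjusted p of 0.0012 in WT, and 5 of 7 WT and 6 of 7 KO scrapings were at 3 counts or fewer. Prelp, which anchors basement membranes, was lower by -2.22 ± 0.45 and -2.87 ± 0.43. Optc (opticin, known from the eye) was called lower as well, but no fold is given, as it had 5 counts over the WT and 25 over the KO scrapings (23 of them in mouse 13), against 83 and 48 in myometrium. Ecm2, beside Ogn, was lower by -1.37 ± 0.37 and -1.52 ± 0.40 (adjusted p = 0.012 and 0.0084). Kera and Epyc, which share the cluster of Lum and Dcn, had 0 counts and 1 count in the 42 samples, and Omd had 17.

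Of the other relatives, Postn (periostin, which promotes the cross-linking of collagen) was lower in endometrium by -3.15 ± 0.54 in WT and -3.48 ± 0.59 in KO, with medians of 7.75 against 263 CPM and 6.60 against 278 CPM. Its highest scrapings were the muscle-rich ones of WT mouse 3 at 149 CPM and KO mouse 13 at 119 CPM. Efemp1, which encodes the glycoprotein fibulin 3, was lower by -1.98 ± 0.34 in WT and -2.41 ± 0.31 in KO. The glycoproteins Tnc and Thbs2 were called lower in both genotypes and Thbs4 in KO, all at counts too low for a fold. Over the 7 mice of a group, Tnc had 9 and 15 counts in WT and KO endometrium against 46 and 46 in myometrium, Thbs2 had 5 and 30 against 44 and 50, and Thbs4 had 4 and 1 against 7 and 11. Opposite in direction were Spp1 (osteopontin, a product of epithelium and macrophages) at 1.97 ± 0.38 and 3.21 ± 0.67, and Tgfbi, which mediates adhesion to collagen, at 1.70 ± 0.31 and 2.30 ± 0.41. The mean level of Spp1 was 205 CPM in WT and 651 CPM in KO endometrium, against 53.8 and 68.7 CPM in myometrium.

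The whole horn took no single place beside its layers. For Lum it lay between the layers in 7 of 7 WT and 6 of 7 KO mice, for Sparcl1 in 7 of 7 of each and for Ogn in 6 of 7 WT and 7 of 7 KO mice. Smoc2 lay between its layers in 5 and 6 mice and Dcn in 5 and 5. Htra3 was instead lower in the horn than in both layers, in 5 of 7 WT and 6 of 7 KO mice, with 83.5 ± 31.6 CPM in WT horn and 104 ± 33.9 CPM in KO horn (SD, n = 7). Fmod was higher in the horn than in both layers in 6 WT and 4 KO mice. This rested on few counts, at 1 to 22 in a WT horn and 2 to 16 in a KO horn, with most layer samples at 3 counts or fewer.

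The horn levels themselves overlapped between genotypes for each member. Lum held 25.1, 52.1 and 115 CPM in WT horn and 30.1, 61.8 and 255 CPM in KO horn (lowest, median, highest). Ogn held 80.6 ± 50.8 and 82.1 ± 30.2 CPM (SD, n = 7), Dcn 1644 ± 373 and 1749 ± 434 CPM, and Bgn 211 ± 54.1 and 156 ± 62.9 CPM. Of the matricellular genes, Sparcl1 stood at 713 ± 110 CPM in WT and 701 ± 320 CPM in KO horn, so its KO horns were the more scattered, at 330 to 1161 CPM against 619 to 941 CPM. Smoc2 stood at 142 ± 31.9 and 119 ± 64.2 CPM, with KO mouse 9 at 256 CPM and the next KO mouse at 124 CPM. Spon2 lay above both layers in 4 WT and 2 KO mice and below both in 3 KO mice.

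For some members the place of the horn differed between genotypes in count. Bgn stood above both layers in 5 of 7 WT and 0 of 7 KO mice, and below both in 4 KO mice. Smoc1 stood above both layers in 3 WT mice and below both in 5 KO mice. On the log2 scale, the horn minus endometrium was 0.99 in WT and -0.21 in KO for Smoc1, and the horn minus myometrium -0.36 and -1.37. These differences of position between genotypes were not tested. The fibroblast score of the horn (mean log2 CPM of the 4 genes) lay at 6.67 to 8.34 in WT mice and 7.29 to 8.73 in KO mice, near the endometrium and below the 8.95 to 9.59 of WT myometrium. All 4 fibroblast genes were called lower in horn than in myometrium in both genotypes, and mesothelial genes (Upk3b, Msln, Lrrn4 and Upk1b) were called higher in 3 of 4 in WT and 4 of 4 in KO. Their part in the position of the horn was not tested.

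**Figure D3:**
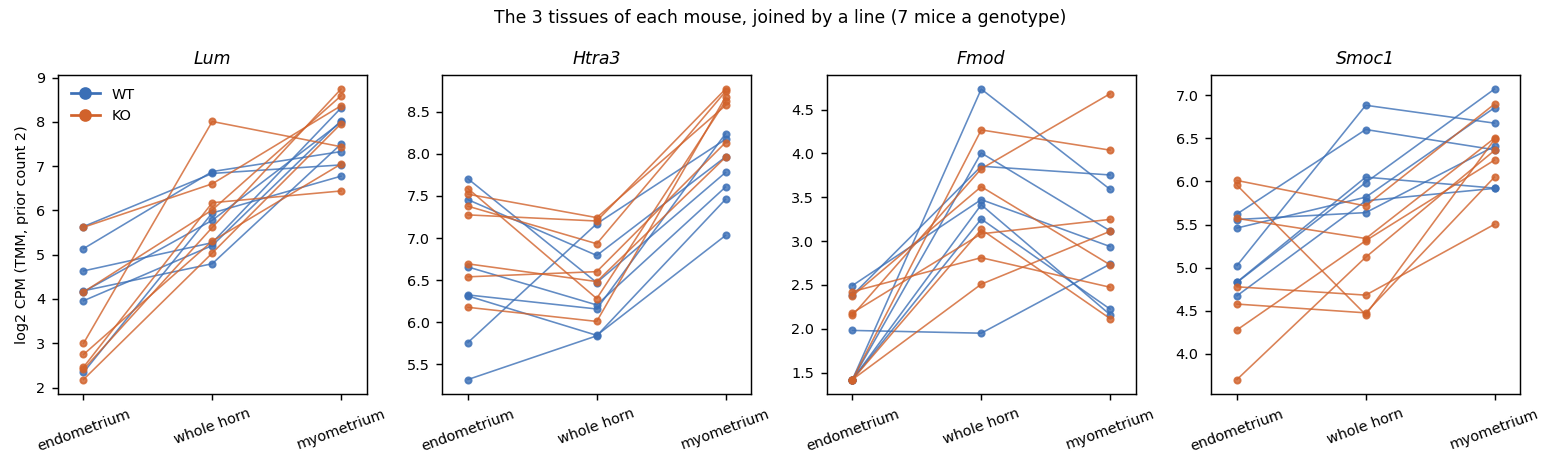
Lum, Htra3, Fmod and Smoc1 on a log2 CPM axis in the 3 tissues of each mouse, with a line joining the samples of 1 mouse (WT blue, KO orange, 7 mice each). Lum climbs from endometrium through horn to myometrium in all mice but KO mouse 9, Htra3 dips in the horn, and Fmod peaks there in 6 WT and 4 KO mice. Fmod rests on 3 counts or fewer in most samples of the layers.

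KO and WT mice were compared in each tissue, and no member passed the threshold. In the horn, endometrium and myometrium 0 of 10 members were called (edgeR quasi-likelihood test with Benjamini-Hochberg adjustment), where 0% of all genes tested were called. At an unadjusted p under 0.05 there were 2, 1 and 2 members, where 5.65%, 5.20% and 4.21% of all genes fell under it. As the members were chosen with earlier results of these data known, nothing is read from these counts. DESeq2 called 0 members and gave the same counts at an unadjusted p. No member had separate ranges in the genotypes in any tissue, which was rare over all genes as well. KO lay wholly below WT for 6 of 12959 genes in the horn, 7 of 13004 in the endometrium and 6 of 12991 in the myometrium. It lay wholly above WT for 0, 7 and 3 of them. The differences that reached an unadjusted p under 0.05 were Smoc1 and Spon2 in the horn, Spon2 in the endometrium and Htra3 and Bgn in the myometrium.

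The lowest p of a member was that of Spon2 in the endometrium. WT scrapings held 16.1, 17.7, 31.0, 37.3, 39.4, 41.9 and 44.2 CPM, and KO scrapings 42.4, 47.8, 68.7, 87.9, 105, 113 and 138 CPM. Every KO value but the lowest was above every WT value. The means were 32.5 ± 11.4 and 86.1 ± 35.2 CPM (SD, n = 7), and the log2 fold change was 1.38 ± 0.31 (95% interval 0.77 to 1.98, unadjusted p = 0.000166), but the adjusted p over 13004 genes was 0.594 with edgeR. The difference kept its size in both blocks of plate rows, at 1.12 among the 8 mice (5 WT, 3 KO) of rows A to C and 1.32 among the 6 mice (2 WT, 4 KO) of rows D to F, and it was 1.29 without the muscle-rich scrapings of mice 3 and 13. Beside it, the 4 leukocyte genes (Ptprc, Cd52, Csf1r and Cd3e) summed to 119 to 273 CPM in WT and 112 to 309 CPM in KO endometrium. The epithelial genes summed to 717 to 3667 CPM in WT and 1146 to 3103 CPM in KO. The muscle score was 7.79 ± 1.72 in WT and 6.53 ± 2.09 in KO endometrium (SD, n = 7). The part of these lists in the result was not tested. With all 6 groups in a single fit, which takes the 3 tissues of a mouse as independent, the adjusted p was 0.0397 and 0.0472% of all genes were called. It was the single setting tried in which a member was called between genotypes.

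In the other tissues Spon2 leaned the same way without being called. WT horn held 36.0 to 82.9 CPM and KO horn 39.4 to 110 CPM, with a log2 fold change of 0.56 ± 0.25 (unadjusted p = 0.0365, adjusted p = 0.835). Myometrium gave 0.45 ± 0.25. The interaction, which asks if the layer difference of KO differed from that of WT, was 0.93 ± 0.40 for Spon2 (unadjusted p = 0.0239, adjusted p = 0.995 over 14314 genes), and 0 of 10 members were called by it, where 0% of all genes were called and 4.60% had an unadjusted p under 0.05. The layers came from the same mice, and with mouse as a replicate block 10 genes (0.0699%) and 0 members were called, with Spon2 at 0.94 ± 0.39.

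Smoc1 was the member with the lowest p in the horn. WT horns held 47.2, 52.1, 53.7, 60.8, 63.6, 94.5 and 115 CPM, and KO horns 19.3, 19.6, 23.0, 32.2, 37.1, 37.8 and 49.9 CPM. All KO horns but that of mouse 11 were below every WT horn. The log2 fold change was -1.17 ± 0.28 (95% interval -1.72 to -0.63, unadjusted p = 0.000336), with an adjusted p of 0.395 over 12959 genes. It was -0.90 in plate rows A to C and -1.73 in rows D to F. Endometrium and myometrium gave 0.04 ± 0.36 and -0.16 ± 0.23. The difference between tissues in the genotype effect of Smoc1 was not tested. Beside it, the epithelial score was 6.99 ± 0.43 in WT and 7.56 ± 0.37 in KO horn, and the horn libraries held 784630 to 1232992 counts in WT and 490999 to 1099526 in KO. Their part in the result was not tested.

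Htra3 had the lowest p in the myometrium. WT values were 128, 173, 192, 217, 247, 286 and 299 CPM, and KO values 246, 278, 378, 392, 406, 425 and 433 CPM. Of the KO mice 5 of 7 were above every WT mouse. The log2 fold change was 0.73 ± 0.19 (95% interval 0.35 to 1.11, unadjusted p = 0.000629, adjusted p = 0.628 over 12991 genes), at 0.62 in rows A to C and 0.96 in rows D to F. Bgn gave 0.45 ± 0.20 in the same tissue (unadjusted p = 0.0346, adjusted p = 1.000). In the horn Bgn had the other sign, at -0.44, with 4 of 7 KO mice below every WT mouse, and in the endometrium it was at 0.23. The median of the 4 fibroblast genes in the myometrium was 0.49. Col1a1, Col1a2 and Pdgfra were at 0.53, 0.45 and 0.61, all with an unadjusted p under 0.05, which Col3a1 did not reach. None was called, and the 4 genes summed to 3583 to 5592 CPM in WT and 2855 to 8090 CPM in KO myometrium. Their part in the result was not tested.

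The differences of Lum turned on single mice. In the endometrium its log2 fold change was -0.72 ± 0.60, which became -1.97 without mouse 13 and -1.60 without mice 3 and 13. It was -1.94 in plate rows A to C and 0.42 ± 1.05 in rows D to F, the block that holds mouse 13, so the blocks differed in sign. In the horn its value was 0.44 ± 0.42, and -0.14 without KO mouse 9, which held 255 CPM where the next KO mouse held 94.4 CPM. The interaction of Lum was -0.99 ± 0.67, which became -2.24 without mouse 13 and -1.39 ± 0.43 with mouse as a replicate block (unadjusted p = 0.0013, adjusted p = 0.601 with edgeR).

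For the remaining members the differences were small in the fits over all 7 mice. Dcn had log2 fold changes of 0.07 ± 0.19 in the horn, 0.15 ± 0.26 in the endometrium and 0.28 ± 0.19 in the myometrium. Sparcl1 had -0.04 ± 0.24, 0.01 ± 0.25 and 0.07 ± 0.20, all close to 0. Ogn gave 0.01 ± 0.34, -0.17 ± 0.44 and 0.16 ± 0.19, and Smoc2 gave -0.27 ± 0.26, -0.21 ± 0.29 and -0.05 ± 0.20. The value of Smoc2 in the horn was -0.57 ± 0.22 without KO mouse 9 (unadjusted p = 0.0157, adjusted p = 0.610 with edgeR), and -0.59 and -0.09 within the upper and lower block of plate rows. That of Ogn in the endometrium was -1.24 and 0.83 within these blocks, so they differed in sign. With spike-in scaling the sign turned for Dcn (-0.24) and Ogn (-0.29) in the horn, for Ogn (0.13) in the endometrium and for Htra3 (-0.01) in the horn, where it was 0.31 ± 0.26 with TMM factors. Fmod, at few counts, gave -0.36 ± 0.48, 0.52 ± 0.89 and 0.47 ± 0.54. Among the relatives 0 of 29, 29 and 30 tested were called in the horn, endometrium and myometrium, and 7, 3 and 2 had an unadjusted p under 0.05.

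**Figure D4:**
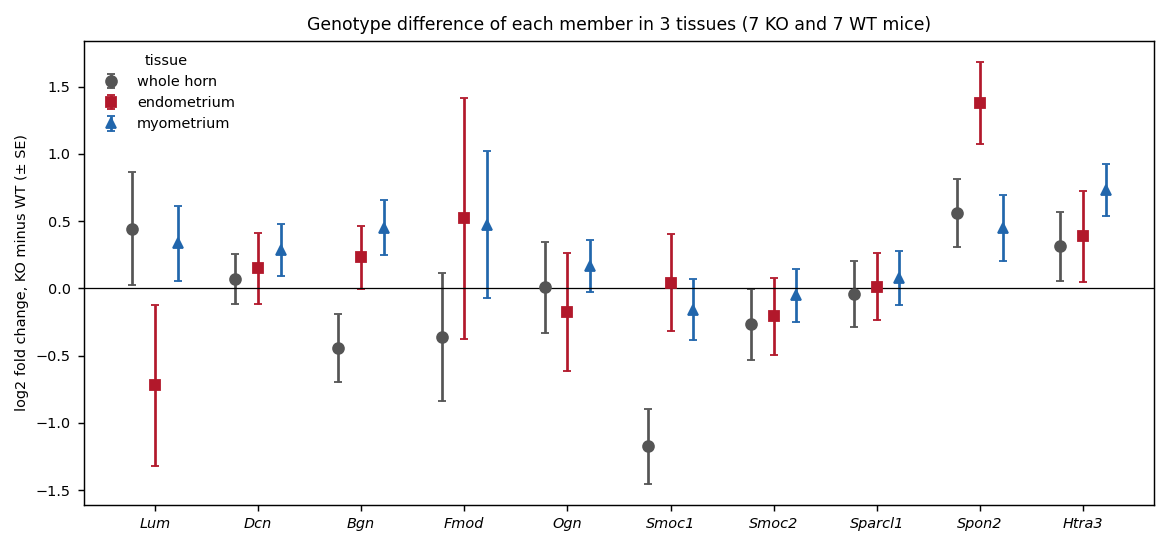
Log2 fold change of KO minus WT (y axis, ± 1 SE, 7 mice a genotype) for the 10 members in whole horn (grey circles), endometrium (red squares) and myometrium (blue triangles). The values farthest from 0 are 1.38 for Spon2 in endometrium and -1.17 for Smoc1 in horn, and no value passed the threshold after adjustment.

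Since the scrapings differed in muscle content, the level of each member in the 14 scrapings was set against the muscle score and the fibroblast score, which made 20 relations (log2 CPM, permutation test with 100000 resamples, two-sided). For Lum and the muscle score Pearson's r was 0.672 (p = 0.00857, adjusted p = 0.0845) and Spearman's rho 0.578 (p = 0.0335, adjusted p = 0.173). Without mice 13 and 3, the 2 farthest from the median score, the r was 0.354. Leaving them out also narrows the range of the score, so how far the relation rested on these mice cannot be told. Within plate rows A to C, which hold mouse 3, it was 0.725 (n = 8), and within rows D to F, which hold mouse 13, it was 0.820 (n = 6). Ogn and the muscle score gave an r of 0.607 (permutation p = 0.0207, adjusted p = 0.0845) and a rho of 0.503 (permutation p = 0.0688, adjusted p = 0.173), and the r was 0.363 without both mice and 0.735 and 0.213 within plate rows. Its relation to the fibroblast score was as strong, with an r of 0.605 (permutation p = 0.0206, adjusted p = 0.0845) and a rho of 0.675 (permutation p = 0.00957, adjusted p = 0.173), and the r was 0.486 without mice 2 and 8 and 0.595 and 0.532 within plate rows.

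Smoc1 and the fibroblast score gave the single r past the threshold after adjustment, at 0.759 (permutation p = 0.00161, adjusted p = 0.0322), with a rho of 0.618 (permutation p = 0.0209, adjusted p = 0.173). The r was 0.571 without mice 2 and 8, and it was 0.900 in the upper and 0.474 in the lower block of rows. With the muscle score, Smoc1 gave an r of 0.553 (permutation p = 0.0412, adjusted p = 0.137), and 0.368 without mice 13 and 3. Fmod, near the floor in the scrapings, gave an r of 0.609 with the muscle score (permutation p = 0.0211, adjusted p = 0.0845), and 0.428 without these mice. Spon2 showed an r of 0.0535 with the muscle score and 0.136 with the fibroblast score (permutation p = 0.856 and 0.649, adjusted p = 0.901 and 0.756), with rho of -0.0637 and 0.0813 (permutation p = 0.832 and 0.784, adjusted p = 0.832 and 0.825), and r without 2 mice of -0.321 and 0.0700.

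**Figure D5:**
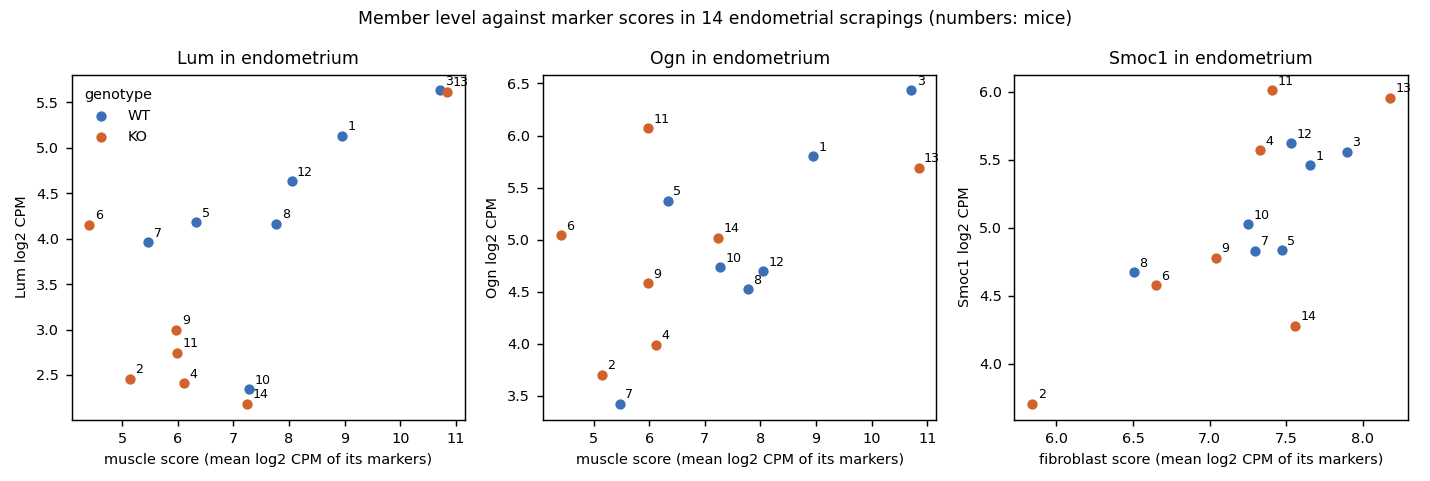
Levels of Lum and Ogn (log2 CPM, y axis) against the smooth muscle score, and of Smoc1 against the fibroblast score (x axes, mean log2 CPM of the markers), in 14 endometrial scrapings numbered by mouse (WT blue, KO orange). Mice 3 and 13 stand at the right end of the muscle score, at 10.7 and 10.8, and carry the highest Lum.

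Finally, the genes most like each member were sought by Spearman's rho over the 42 samples among 5047 genes with a mean log2 CPM of at least 4, as a description, since the samples share mice, tissues and depth. Lum and Ogn were near each other at a rho of 0.915, with Figf (0.922) nearest to Lum and Lama4 (0.909) next to Ogn. Smoc2 and Sparcl1 were likewise near each other at 0.882, and both had Lims1 as the nearest gene, at 0.887 and 0.935. Sparcl1 was also near Fbxo32 (0.899). Dcn had Gm15867 (0.913) and Ccdc107 (0.825), Htra3 had Ccdc80 (0.830) and Col4a1 (0.818), and Smoc1 had Tgfbr3 (0.807) and Prrx1 (0.759). The values were lower for Fmod with Rarres2 (0.735) and Csrp2 (0.730) and for Bgn with Ecm1 (0.643) and Dpt (0.642). The lowest values were those of Spon2, with Atp6v1g1 (0.570) and Ndel1 (0.565). After the mean of each group was removed, the pair of Lum and Ogn still showed a rho of 0.63, Smoc2 and Sparcl1 0.55 and Dcn and Spon2 0.54, and the lowest pair was Dcn and Smoc1 at -0.34.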

How the data were processed

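The authors deposited a single table of whole-number counts, with 24422 gene symbols, 92 ERCC spike-ins and 45 libraries, which was not scaled or filtered. Per the methods of the study, reads were filtered, sorted by barcode, joined by molecular identifier and aligned to mm9 with TopHat, and tags were counted over UCSC gene models with Homer. The submitters' processing notes name HTSeq and mm9. Versions, the use of strand and the treatment of reads with several positions are not given in the sources used here. STRT counts transcript 5′ ends, so a start site outside the models is lost, and copies of a gene can share reads.

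Groups came from the tissue and genotype in the labels. Repeat libraries of 1 mouse and tissue (3 of endometrium, 2 of myometrium) were summed, which left 42 samples. A gene entered a fit where 5 or more of its samples reached 1 CPM. The quasi-likelihood test of edgeR 4.0.16 (R 4.3.3, TMM scaling, no covariate) was used, p-values were adjusted by Benjamini-Hochberg over all genes of the fit, and the threshold was 0.05. Each comparison held the 2 groups it was about, and the interaction held endometrium and myometrium of both genotypes. Layer comparisons share samples with the comparisons of genotypes. Correlations used scipy 1.17.1 in Python 3.11.15. The fits were run beforehand on simulated data, with no link between the tissues of a mouse and with changes placed in well-counted genes alone. That run does not bear on the pairing of tissues or on members with few counts. Log2 CPM used a prior count of 2.

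The mouse number in the labels pairs the tissues. Deviations from group means correlated at 0.0859 in WT and 0.128 in KO between layers of the same mouse, and at -0.0146 and -0.0213 between those of other mice (14822 genes). The letters of the column codes were read as plate rows, which the labels do not state. Mice lay in rows A to C or D to F, and genotype differences are given within these blocks. Apart from repeat libraries, horn lay in rows A and D, myometrium in B and E and endometrium in C and F. Tissue and row therefore cannot be told apart. All 10 members were named, and of the relatives called between layers the 10 with the largest mean change, cluster neighbours, and the 2 nearest genes of each member. The members and lists were chosen with earlier results of these data known. The alternatives were DESeq2 1.42.0, other scalings, filters and prior counts, mouse as a replicate block, all 6 groups in a single fit, only the first library of each mouse and tissue, and each mouse left out.

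Upstream windows ended 1 base before the gene start of GENCODE vM1 on genome NCBIM37, and those of 2 members are not reported here. Floors cover counting error only, while the 95% intervals of fold changes also hold the spread between mice.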

Additional observations from a re-analysis of the deposited data

Results flagged for a closer look

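The highest and lowest mouse of each of the 60 groups of 7 values (10 members in 6 groups) was compared with the nearest mouse, and in 5 groups the gap was large for the range of the group by Dixon's criterion on the CPM scale. Chance gives about 1 such group in 20, and on the log2 scale 0 of the 60 were past the criterion. In the horn of KO mouse 9, Lum was at 255 CPM with the next mouse at 94.4 CPM, and Smoc2 in the same sample was at 256 CPM with the next at 124 CPM. In the endometrium of KO mouse 13, whose scraping had a muscle score near that of myometrium, Lum was at 46.5 CPM with the next mouse at 15.2 CPM. Spon2 was at 82.9 CPM in the horn of WT mouse 8, where the next mouse was at 55.7 CPM, and at 84.0 CPM in the myometrium of WT mouse 5, where the next was at 57.4 CPM.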

How the results depend on the processing

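Of 1342 values of single genes under the alternatives, 1319 kept their side of the threshold, 6 came to pass it and 17 ceased to. Fold changes were judged by the adjusted p and correlations by the unadjusted permutation p. Of the 17, 2 were correlations with the muscle score and were not calls. Among the 1282 values that were log2 fold changes, 83 took the other sign, all of them uncalled values between genotypes or of the interaction. With all 6 groups in a single fit, which takes the tissues of a mouse as independent, 1 member (Spon2 in endometrium) was called between genotypes, beside 7 of 14822 genes. With spike-in scaling, 5 members were called between the layers of WT (8 with TMM), where 10.7% of all genes were called (13.2% with TMM). In KO, the members Fmod and Smoc1 lost their call with it, and 10 relatives were called (17 with TMM), where 23.5% of all genes were called (19.4% with TMM). That scaling moved the median of all genes to -0.37 in the horn, 0.27 in the endometrium, and 0.21 (WT) and 0.575 (KO) between the layers, so signs of small changes depend on it. Leaving out 1 mouse at a time gave 6 to 8 members and 10 to 13 relatives called between layers in WT, where 9.03% to 14.1% of all genes were called, and 7 to 9 members and 11 to 18 relatives in KO, where 14.8% or more were called, with the 11 found without mouse 4. Between layers, Fmod lost its call in 6 settings in WT and 3 in KO and Htra3 in 4 in WT, and Bgn in KO gained it in 5, DESeq2 among them. Dcn in WT and Smoc1 in KO lost theirs with spike-in scaling alone. With mouse as a replicate block, 8 members and 15 relatives were called between layers in WT (14.0% of all genes) and 8 and 19 in KO (21.4%). By the interaction, the block called 0 members, and 10 genes in all where the fit without it called 0. The fits without mice 3 and 13 were chosen after seeing the data and called 0 members. Low counts limit Fmod, Optc, Thbs2, Thbs4 and Tnc in both layers and Lum in KO endometrium.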
